A study of Mus musculus with 6 samples.

Results

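Small nucleolar RNA (snoRNA) genes were followed through primary and metastatic tumours of a mouse model of ovarian cancer. They were taken as the genes whose symbol starts with Snora (H/ACA box) or Snord (C/D box) on probe sets to which the array's annotation gives exactly 1 gene symbol, with the brightest probe set kept per gene. This gave 62 of the 30142 genes tested, 18 H/ACA and 44 C/D genes. A further 49 snoRNA symbols lay only on probe sets that carry several symbols and were not used.

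The tumours grew from ID8-VEGF cells, a line from mouse ovarian surface epithelium that makes extra vascular endothelial growth factor, placed under the bursa of the ovary. Late tumours of 3 mice, C1M3, C1M5 and C2M3, were profiled, with 1 primary and 1 metastatic tumour from each mouse and 1 array per tumour, so that both groups shared the cells, the injection and the hosts. Strain, age and the site of the metastatic tumours are not given in the labels. For the primary tumour of C2M3 the source name reads C2M2, and the title and donor label, which both read C2M3, were followed. Because each array of a group is another animal, the spread within a group contains the variation among animals.

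Both snoRNA classes work mainly as guides. C/D box snoRNAs assemble with fibrillarin, Nop56, Nop58 and Snu13 and place a methyl group on the ribose of a chosen nucleotide of ribosomal RNA, whereas H/ACA box snoRNAs assemble with dyskerin, Nhp2, Nop10 and Gar1 and turn a chosen uridine into pseudouridine. A few members of both classes serve the cutting of the ribosomal RNA precursor, and most mammalian snoRNAs are cut from introns of host genes, many of which encode ribosomal proteins or other parts of the translation machinery.

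No snoRNA gene passed the test between metastatic and primary tumours. With limma, 0 of 62 members had a Benjamini-Hochberg adjusted p under 0.05 and the smallest was 0.842, where 0.0% of all genes passed in either direction. At an unadjusted p under 0.05 in limma, 6 members were higher in metastatic tumours (Snord123, Snord90, Snord82, Snord14a, Snord23 and Snora41), beside 2.88% of all genes. Snord55 alone was lower at that level, beside 1.33% of all genes. With the mouse as a block, limma also gave 0 members past the threshold, with 8 higher at an unadjusted p under 0.05, beside 2.96% of all genes, and 0 lower, beside 1.97%.

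Members leaned towards higher values in metastatic tumours by their counts. The mean was higher there for 40 of 62 members, beside 55.1% of all genes. The value was higher in the metastatic tumour of all 3 mice for 17 members (5 H/ACA and 12 C/D), beside 11.1% of all genes, and lower in all 3 for 4 members (Snora16a, Snora73b, Snord13 and Snord55), beside 8.64%. Equal values within a mouse counted as neither sign. Values tied among the arrays were found for 15 members and for 51.4% of all genes, which limits this comparison of signs here and below. Groups did not overlap for 10 members, of which 8 were higher, beside 4.79% of all genes, and 2 lower, beside 2.84%. A mean difference of 2-fold or more was found for 6 members, all higher, beside 1.61% of all genes for that direction and 0.567% for the other. The 6 were Snord42a, Snord123, Snord90, Snord61, Snord82 and Snora69.

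The distance of these counts from those over all genes depended most on mouse C1M3. Without mouse C1M3, 26 of 62 members were higher in both remaining mice, or 41.9%, beside 37.1% of all genes. Without C1M5 the count was 21 members beside 18.7% of all genes, and without C2M3 it was 24 beside 15.7%. With each array centred on the median of all genes, 13 members were higher in all 3 mice, or 21.0%, beside 5.84% of all genes, and 8 were lower, beside 19.6%. Of the 17 members above, 11 kept their sign in every mouse. With each array centred on olfactory and vomeronasal receptor genes, which served as a gauge of unspecific signal, 10 were higher, or 16.1%, beside 6.33% of all genes, and 4 lower, beside 10.1%, and 8 of the 17 kept their sign. The mean was higher for 30 members with the first centring, beside 30.4% of all genes, and for 32 with the second, beside 36.5%. Centring thus lowered both the counts of higher members and the shares of all genes, without bringing the members down to those shares. For a higher mean, the members went from 40 to 30 and 32 of 62, where the share of all genes went from 55.1% to 30.4% and 36.5%.

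The C/D genes had a median difference of 0.13 between metastatic and primary tumours on the log2 scale, with within-mouse medians of 0.18 in C1M3, 0.14 in C1M5 and 0.05 in C2M3. The mean was higher for 31 of the 44 C/D genes. The H/ACA genes had a median difference of 0.01, with within-mouse medians of 0.10, -0.02 and 0.11, and the mean was higher for 9 of 18. Over all genes the median was 0.02. Centred on the receptor genes, the medians became 0.06 for C/D and -0.06 for H/ACA genes, and centred on all genes 0.02 and -0.09. The sign of the H/ACA median turned with either centring, as did that of the median over all genes, which became -0.06 and -0.09 by the same shift. The H/ACA median minus the C/D median was -0.12, and within mice it was -0.08, -0.16 and 0.05, with a spread over mice of 0.11 (SD, n = 3). The difference between the classes thus held 1 sign in C1M3 and C1M5 and the other in C2M3, and it was about as large as that spread.

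Differences were wider among the brighter members. Of the 62 members, 38 had a mean above the median level of all genes (log2 intensity 5.04), and the other 24 had a median difference of -0.00. The 24 lay nearer the background, which limits what their median shows. That mean covers both groups, so a higher metastatic value helped a gene to pass. Snora75 passed with a mean of 4.90 in primary and 5.22 in metastatic tumours. Among the 38, the median difference was 0.31, with 0.37, 0.30 and 0.16 within the mice, beside 0.02 over all genes above that level. Values were higher in all 3 mice for 14 of these 38, beside 12.1% of genes above that level, and lower in all 3 for 2, beside 10.6%. The mean was higher for 28 of the 38, beside 54.9%, and the groups did not overlap for 7 with the metastatic side higher, beside 4.86%, and for 1 with it lower, beside 3.02%. At an unadjusted p under 0.05 in limma, 6 were higher, beside 3.13%, and 0 lower, beside 1.65%. Above that level, the 11 H/ACA genes had a median difference of 0.23 and the 27 C/D genes of 0.32. Only 12 members, 1 H/ACA and 11 C/D, lay above the brightest background probe set on all 6 arrays, beside 29.4% of all genes, and that set holds Snora31, Snord123, Snord61, Snord69, Snord13, Snord14e, Snord42a and Snord4a among the members described below.

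**Figure D1:**
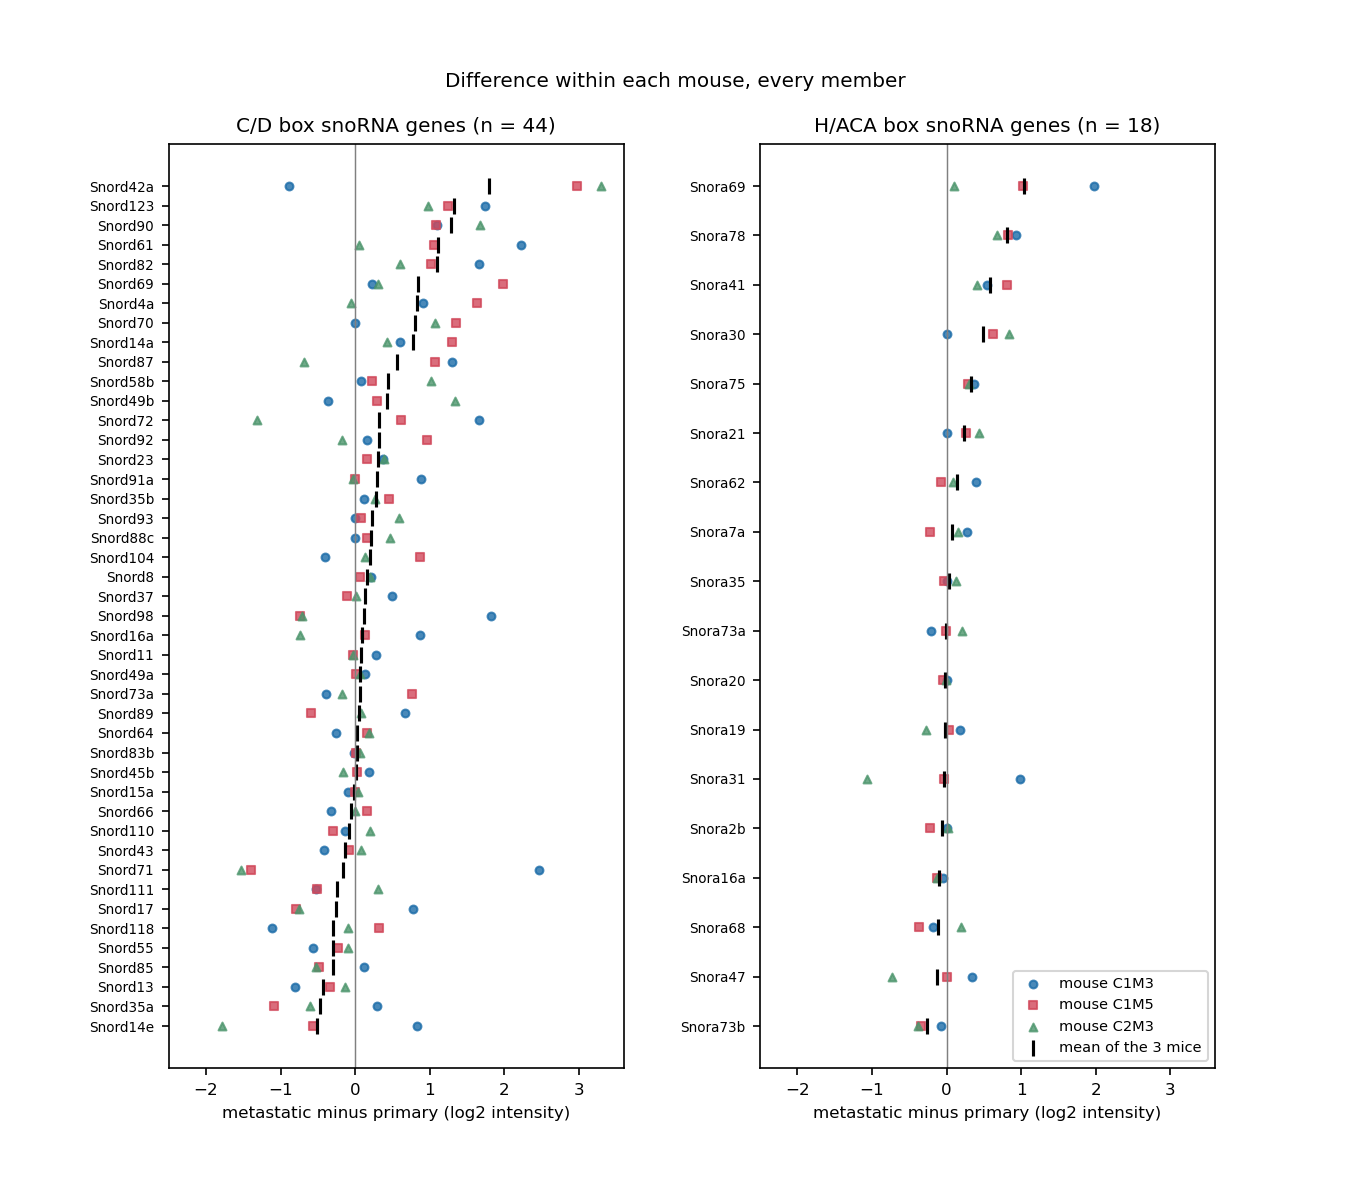
Metastatic minus primary value of each of the 62 snoRNA genes within each mouse (log2 intensity, coloured symbols) and the mean of the 3 mice (black bar), C/D genes left and H/ACA genes right, ordered by the mean. Snord42a has the highest mean and opposite signs among mice, and no gene passed the test.

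The measured members listed for processing of the ribosomal RNA precursor, which need not all serve its cutting, were mostly at lower means in metastatic tumours. Of 14 Snord and Snora symbols named for this role, 6 were measured, Snord118, Snord13, Snord14a, Snord14e, Snora73a and Snora73b. Their median difference was -0.28, with -0.14, -0.18 and -0.11 within the mice. The mean was lower for 5 of 6, among them Snora73a at -0.00, where 55.1% of all genes had a higher mean. U3, a C/D RNA with a role in the cutting of this precursor, is read under Rnu3 symbols that lie outside the rule. Its genes had higher metastatic means, by 0.40 for Rnu3a, 0.41 for Rnu3b1 (values shared with Rnu3b2 and Rnu3b3) and 0.37 for Rnu3b4. Each of them was lower in the metastatic tumour of C1M3. With arrays weighted by their quality the differences of Snord118, Snord13 and Snora73a changed sign, and leaving out 1 array or mouse turned those of Snord118, Snord13, Snord14e and Snora73a.

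Snord13 encodes U13, a C/D box RNA made from its own promoter that pairs with the small-subunit ribosomal RNA. It measured 12.51, 9.19 and 10.64 in the primary tumours of C1M3, C1M5 and C2M3 and 11.70, 8.85 and 10.50 in their metastatic tumours, always in this order of mice below. Both tumours of C1M3 were the highest and both of C1M5 the lowest, and the groups overlapped over nearly their whole range. Differences between mice held 96.0% of its sum of squares, beside a median of 39.7% over all genes. The metastatic tumour was lower within each mouse, by -0.81, -0.34 and -0.14. The mean difference was -0.43 with a standard error (SE) of 1.14 in the fit without a block, which contains the differences between mice. With the mouse as a block the SE was 0.17. A second Snord13 probe set read 12.64, 9.05 and 10.14, then 11.29, 8.46 and 10.04, with the same order of mice. Over all members, 10 had 1 order of mice in both tissues, beside 11.8% of all genes, so this count does not differ much from that over all genes. Snord83b and Snord45b, both dimmer, had shares between mice of 98.3% and 96.0%, with ranges over the arrays of 0.41 and 0.99. Snord13 thus stands out by the size of the mouse differences, with a range of 3.66, and not by their share.

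Snord118 encodes U8, which is needed for maturation of the large-subunit ribosomal RNAs. Its values were 7.04, 4.93 and 5.48 in primary and 5.93, 5.25 and 5.39 in metastatic tumours. On this probe set the mice kept the order they had for Snord13, with C1M3 highest and C1M5 lowest in both tissues. A second and dimmer Snord118 probe set read 4.62, 4.61 and 3.57, then 3.81, 3.79 and 3.97, with C2M3 lowest in primary and highest in metastatic tumours. The differences of -1.11, 0.32 and -0.09 had opposite signs, and without the primary tumour of C1M3 the mean difference went from -0.29 to 0.32.

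Snord14a and Snord14e encode copies of U14, which takes part in cutting towards the small-subunit ribosomal RNA and also guides a methylation. Snord14a, inside Rps13, measured 6.09, 5.41 and 5.92 in primary and 6.70, 6.71 and 6.35 in metastatic tumours. All metastatic tumours were above all primary tumours, with a mean difference of 0.78 (SE 0.21). Snord14e, inside the chaperone gene Hspa8, measured 7.74, 7.76 and 10.18 in primary and 8.58, 7.19 and 8.39 in metastatic tumours. The primary tumour of C2M3 stood above the other 5 arrays, the groups overlapped, and the mean difference of -0.51 (SE 0.82) became 0.30 without that array. The copies thus differed in the sign of their mean difference. Whether the probes of one copy also read the other was not tested, so their values are uncertain as those of single genes.

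Snora73a and Snora73b encode copies of U17, an H/ACA RNA that acts in early processing rather than as a guide, and both lie in Snhg3. Snora73b measured 5.33, 5.47 and 5.29 in primary and 5.27, 5.13 and 4.90 in metastatic tumours. The groups did not overlap, the mean difference was -0.27 (SE 0.11), and with either centring its within-mouse difference in C1M3 turned positive. Averaged over its 2 probe sets, its groups overlapped. Snora73a measured 5.27, 5.15 and 4.70, then 5.07, 5.13 and 4.90, a mean difference of -0.00 with groups that overlapped.

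**Figure D2:**
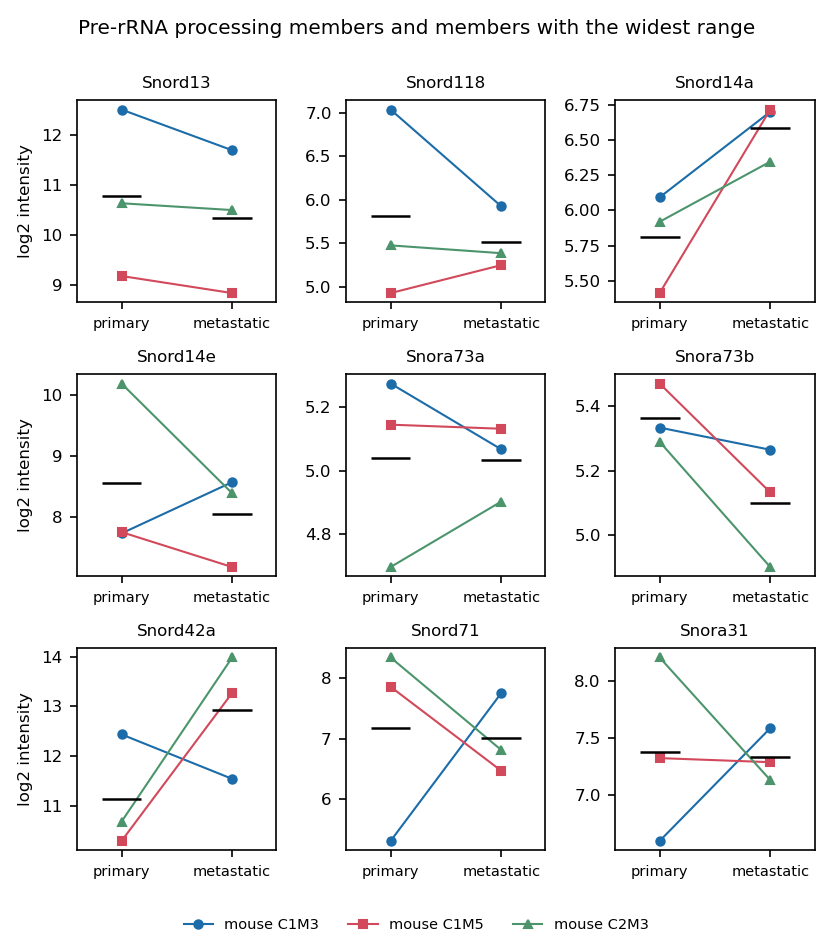
log2 intensity of the 6 pre-rRNA processing members and of Snord42a, Snord71 and Snora31, primary left and metastatic right, with 1 line per mouse and black bars at group means (each panel has its own axis). Snord13 keeps the order of the mice in both tissues, and the lines of Snord42a and Snord71 cross.

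Among the C/D guides, Snord123 had the difference that was widest relative to its error in the fit without a block. It measured 8.81, 9.31 and 9.36 in primary and 10.55, 10.56 and 10.35 in metastatic tumours. Every metastatic value was above every primary value, and the 3 metastatic tumours lay close together. The mean difference was 1.32 (SE 0.17), or 2.50-fold, with 1.74, 1.25 and 0.98 within the mice and an adjusted p of 0.842 in limma. Leaving out any array or mouse kept it between 1.12 and 1.49. Snord123 lies inside Snhg18, a spliced noncoding host, which measured 8.95, 9.03 and 8.62 in primary and 9.35, 9.21 and 9.20 in metastatic tumours. Host and member were both without overlap, with a host difference of 0.39 (SE 0.12).

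Snord90, inside the RNA-binding ubiquitin ligase gene Rc3h2, measured 6.17, 5.12 and 5.26 in primary and 7.27, 6.21 and 6.93 in metastatic tumours. The groups did not overlap, although the lowest metastatic value lay just above the highest primary value, and C1M3 was highest and C1M5 lowest in both tissues. The within-mouse differences were 1.10, 1.09 and 1.67, with a mean of 1.29 (SE 0.41). With the mouse as a block its SE was 0.16, beside 0.19 for Snord123. Among the C/D genes Snord90 then had the difference widest relative to its error. Snord82, inside the nucleolin gene Ncl, measured 4.90, 4.82 and 5.65, then 6.57, 5.84 and 6.25. Its groups did not overlap either, and its mean difference was 1.09 (SE 0.31), with the widest difference, 1.66, in C1M3. Both kept their sign in every mouse with either centring.

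Snord61, inside the splicing regulator gene Rbmx, measured 7.10, 7.79 and 9.56 in primary and 9.33, 8.84 and 9.61 in metastatic tumours. The primary tumour of C2M3 reached the metastatic level, so the groups overlapped. The mean difference of 1.11 (SE 0.69) came from 2.23 in C1M3 and 1.05 in C1M5 beside 0.05 in C2M3, and with either centring the last turned negative. Snord69, inside the nucleostemin gene Gnl3, measured 8.53, 6.98 and 8.52, then 8.76, 8.96 and 8.82. Its groups did not overlap, yet 1.98 of difference lay in C1M5 beside 0.23 and 0.30 in the other mice, and its mean difference of 0.84 (SE 0.46) fell to 0.27 without that mouse. Centred on the receptor genes, Snord69 was lower in the metastatic tumour of C2M3.

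The H/ACA guides with higher values in all 3 mice were Snora69, Snora78, Snora41, Snora75 and Snora21. Snora41, inside the translation elongation factor gene Eef1b2, measured 6.16, 5.87 and 6.21 in primary and 6.70, 6.68 and 6.61 in metastatic tumours. It was the only H/ACA gene whose groups did not overlap with the metastatic side higher, with a mean difference of 0.58 (SE 0.10). Snora78, within the interval of Snhg9 and Rps2, measured 5.10, 5.81 and 6.28, then 6.04, 6.63 and 6.96. Its groups overlapped, but the mice kept 1 order in both tissues and the within-mouse differences were close, at 0.93, 0.82 and 0.68, around a mean of 0.81 (SE 0.39). With the mouse as a block its SE was 0.08, and its difference was the widest of all members relative to its error.

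Snora75, in Ncl like Snord82, had the same kind of pattern at a lower size. It measured 5.07, 5.03 and 4.59 in primary and 5.44, 5.32 and 4.89 in metastatic tumours, with 0.37, 0.29 and 0.30 within the mice. Blocking on the mouse gave Snora75 and Snora78 unadjusted p-values under 0.05 in limma, which the unblocked fit did not. Snora69, inside Rpl39, measured 5.45, 6.08 and 7.43, then 7.44, 7.10 and 7.53. As for Snord61, the primary tumour of C2M3 was already at the metastatic level, and the mean difference of 1.03 (SE 0.54) came from 1.98 and 1.02 in the other mice beside 0.09. Snora21, inside Rpl23, measured 6.20, 5.74 and 5.65, then 6.21, 5.997 and 6.08, so that C1M3 added 0.01 to its mean difference of 0.23 (SE 0.17). With centring on the receptor genes Snora75 was lower in C2M3, and with either centring Snora69 was.

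**Figure D3:**
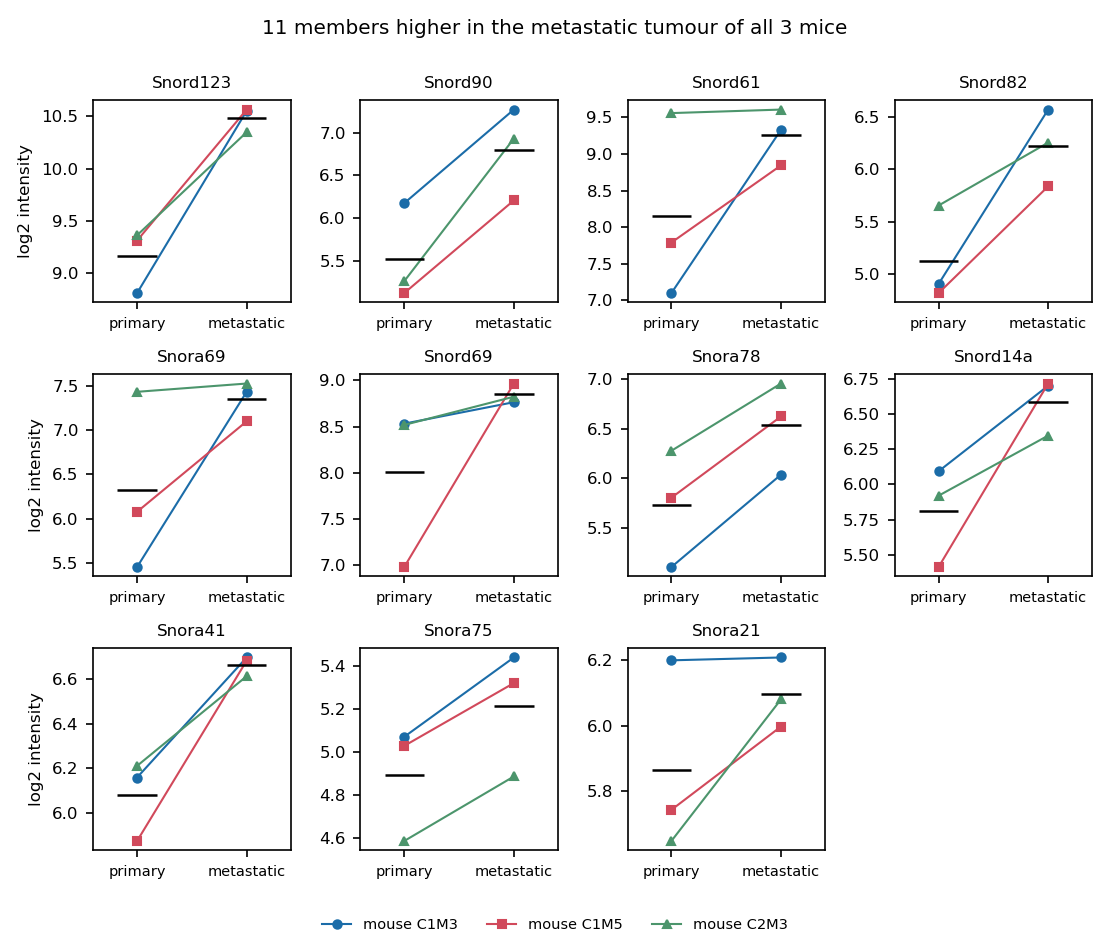
log2 intensity of the 11 named snoRNA genes with higher values in the metastatic tumour of all 3 mice, with 1 line per mouse and black bars at group means (each panel has its own axis). Snord61 and Snora69 are nearly flat in C2M3 and turn lower there when arrays are centred on receptor genes or on all genes, as Snora75 and Snord69 do with the first, and none passed the test.

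Members varied more among arrays than their group means show. The range over the 6 arrays was 4-fold or more for 10 members, 9 of them C/D, beside 6.0% of all genes. The median range was 1.11 for C/D and 0.57 for H/ACA genes on the log2 scale, beside 0.50 over all genes. Among genes above the median level, which include all 10, the share over all genes was 11.3%.

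Snord42a, inside Rpl23a, had the widest range. It measured 12.44, 10.30 and 10.69 in primary and 11.55, 13.27 and 13.98 in metastatic tumours. The metastatic value was higher by 2.97 in C1M5 and 3.30 in C2M3 and lower in C1M3, by -0.89, so the primary tumour of C1M3 overlapped the metastatic group. The mean difference was 1.79 (SE 0.88), and without C1M3 it was 3.14. Snord4a lies in the same host and measured 9.13, 8.43 and 9.50, then 10.04, 10.06 and 9.45. Its within-mouse differences of 0.91, 1.63 and -0.06 did not follow those of Snord42a in C1M3 or C2M3.

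Snord71, within the interval of the adaptor complex gene Ap1g1, measured 5.30, 7.86 and 8.35 in primary and 7.76, 6.47 and 6.81 in metastatic tumours. It ran opposite to Snord42a in every mouse, with 2.46, -1.40 and -1.54. Snora31, inside Tpt1, measured 6.60, 7.32 and 8.20, then 7.59, 7.29 and 7.13. Its within-mouse differences of 0.99, -0.04 and -1.07 nearly cancelled to a mean of -0.04 (SE 0.43). The mean differences of Snord71 and Snora31 turned positive when some of the arrays or mice were left out.

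Snord35a was the only measured member of the Rpl13a snoRNAs, which are known for a role in the response to lipid and oxidative stress. It measured 4.66, 5.84 and 5.16 in primary and 4.95, 4.76 and 4.55 in metastatic tumours, with overlap through C1M3 and a mean difference of -0.47 (SE 0.33) that was -0.16 without the primary tumour of C1M5 and -0.85 without mouse C1M3. Snord87, in the interval of Snhg6, measured 5.92, 6.23 and 7.01, then 7.22, 7.31 and 6.32, and differed in sign between C2M3 and the other mice. Snord64 was the only measured member of the imprinted clusters, which are expressed mainly in brain, and it lay between 3.90 and 4.16 on all 6 arrays. Members that are hosted by Gas5 or Snhg1 were not measured on probe sets of their own.

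Host genes were compared with the snoRNAs they hold. By RefSeq annotation, 59 of the 62 members lie inside the interval of another gene, and Snord13, Snord118 and Snord89 do not. Hosts were taken by position alone, since strands were not compared. RefSeq gives a median length of 68 nucleotides for C/D and 120.5 nucleotides for H/ACA members. There were 59 distinct hosts, of which 6 held 2 members and none held more. Ribosomal protein genes held 19 members, and long noncoding RNA genes 13. Only 29 members had a single host on a probe set of its own. Member and host differed in the same direction for 13 of these 29, and the member's difference was wider than the host's for 22. The median difference was 0.13 for these members and 0.01 for their hosts. Some host probe sets left little room for a difference, which limits these counts. Htr2c read 3.99 to 4.01 and Snhg14 4.05 to 4.19, and Tpt1 read 6.07 in every metastatic tumour. Hspa8 read 19.45 to 19.89, where 19.89 was the highest value on any array.

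Paired members of 1 host did not always share a difference. Ncl, which encodes the abundant nucleolar protein nucleolin, was lower in the metastatic tumour of each mouse, by -0.08, -0.12 and -0.69, where its members Snord82 and Snora75 were both higher. With either centring Ncl no longer had 1 sign in all 3 mice, and its mean difference was -0.37 or -0.40. Nop58, which encodes a core C/D protein, had a mean difference of 0.15 (SE 0.30), and its members Snord70 and Snord11 had 0.81 (SE 0.52) and 0.07 (SE 0.10). Snord70 read 7.40 on 4 of the 6 arrays, and 15 members had such tied values, beside 51.4% of all genes. Among the hosts of the members with the widest mean differences, Rc3h2 had 0.06, Rbmx -0.18, Rpl39 0.24, Snhg9 0.04 and Eef1b2 -0.08. A probe set inside an intron can also read unspliced host RNA, and the array does not tell this from the mature snoRNA.

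**Figure D4:**
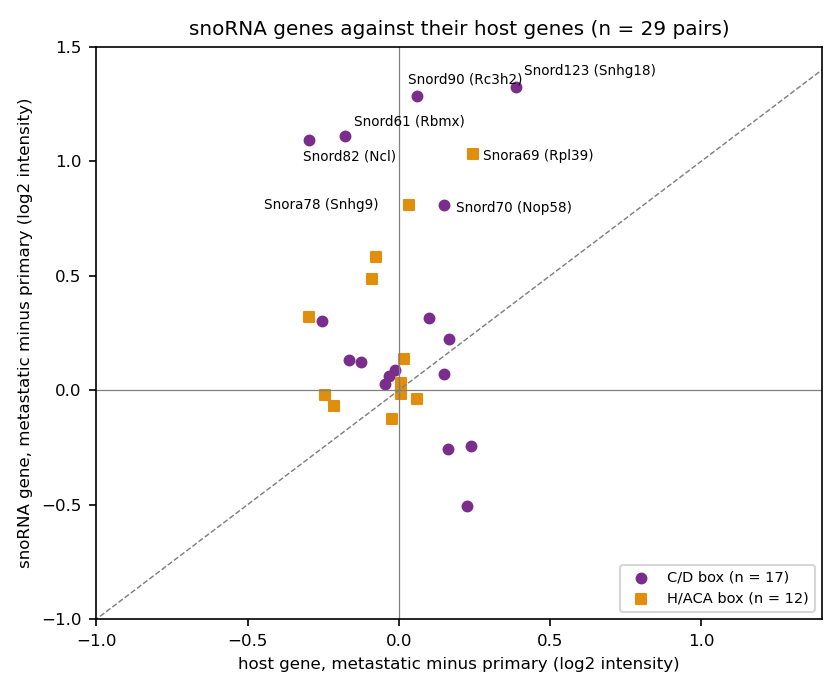
Mean metastatic minus primary difference (log2 intensity) of 29 snoRNA genes (vertical axis) against that of the host gene with its own probe set (horizontal axis), the dashed line marking equal differences. Most points lie further from zero vertically than horizontally, and members with a difference above 0.7 are named with their host.

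Promoters of 3 hosts are shown because the interval of each gene holds members described above, Ncl for Snord82 and Snora75, Nop58 for Snord70 and Snord11, and Snhg18 for Snord123. The sequences are the 250 bases before the annotated start, from RefSeq on GRCm38.p6, at chr1:86359456-86359705 on the minus strand for Ncl, chr1:59684756-59685005 on the plus strand for Nop58 and chr15:32244663-32244912 on the minus strand for Snhg18. Capitals mark each match to the GC box GGGCGG on either strand, where overlapping matches run together.
Ncl: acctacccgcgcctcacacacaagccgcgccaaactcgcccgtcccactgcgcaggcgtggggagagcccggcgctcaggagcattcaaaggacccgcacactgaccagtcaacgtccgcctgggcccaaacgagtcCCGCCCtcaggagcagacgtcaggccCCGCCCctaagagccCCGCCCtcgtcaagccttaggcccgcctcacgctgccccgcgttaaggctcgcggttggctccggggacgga
Nop58: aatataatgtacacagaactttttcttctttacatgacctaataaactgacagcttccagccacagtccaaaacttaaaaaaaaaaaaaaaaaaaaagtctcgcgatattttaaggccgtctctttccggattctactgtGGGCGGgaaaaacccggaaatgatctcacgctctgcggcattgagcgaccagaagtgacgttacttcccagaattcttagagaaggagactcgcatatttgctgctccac
Snhg18: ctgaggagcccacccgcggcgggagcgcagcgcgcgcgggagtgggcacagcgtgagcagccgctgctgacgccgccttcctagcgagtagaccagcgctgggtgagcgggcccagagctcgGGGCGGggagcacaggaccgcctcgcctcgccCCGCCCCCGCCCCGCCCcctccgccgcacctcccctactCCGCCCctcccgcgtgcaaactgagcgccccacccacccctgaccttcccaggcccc
The Ncl, Nop58 and Snhg18 windows held 3, 1 and 5 GC boxes, and none held the E-box CACGTG, which reads the same on both strands. Promoters were found for 46 of the 59 hosts, as 49 windows of 300 bases from 250 before to 50 after the start. A GC box was in 63.3% of the host windows and in 35.7% of all 32851 windows of that length, and an E-box in 22.4% and 7.15%. Such matches describe the letters and do not show binding.

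Genes of the proteins that carry snoRNAs differed little. For C/D particles, 3 of 5 genes were measured, with differences of -0.15 for Fbl (fibrillarin, the methyltransferase), 0.15 for Nop58 and 0.11 for Rrp9, a protein of the U3 particle. For H/ACA particles all 4 were measured, with -0.48 for Dkc1 (dyskerin, the pseudouridine synthase), -0.08 for Gar1, -0.07 for Nhp2 and 0.00 for Nop10. Dkc1 measured 9.76, 8.73 and 8.73 in primary and 8.73, 8.30 and 8.75 in metastatic tumours, so that its mean difference rested on the high primary tumour of C1M3. None of the 7 genes had 1 sign in all 3 mice.

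The assembly factors of snoRNA particles were lower in metastatic tumours by their mean for 7 of 12 genes, where 55.1% of all genes were higher. Of the 12, 5 were lower in all 3 mice, a direction that 8.64% of all genes had. Centred on the receptor genes 5 were lower in all 3 mice, beside 10.1% of all genes, and centred on all genes 6 were, beside 19.6%. Nolc1, which encodes the nucleolar and Cajal body phosphoprotein Nopp140, measured 10.54, 10.03 and 9.70 in primary and 9.79, 9.34 and 8.89 in metastatic tumours. Its within-mouse differences were close, at -0.75, -0.69 and -0.82, while its groups overlapped. Naf1, an assembly factor of H/ACA particles, had a mean difference of -0.52 (SE 0.23), and the other 3 were Nufip1 at -0.38, Ruvbl2 at -0.27 and Pih1d1 at -0.14. Among 25 nucleolar ribosome assembly genes 6 were lower and 1 higher in all 3 mice, beside 8.64% and 11.1% of all genes. With the centrings 3 and 5 of the 25 were lower in all 3 mice. Their median difference of -0.00 became -0.08 and -0.11, and 13 genes of RNA polymerase I and its factors had an uncentred median of -0.01. None of these genes passed the test in limma.

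Values of other gene families moved with the arrays. The mean deviation of the C/D members from each gene's own mean was lowest in the primary tumour of C1M5, at -0.32, and highest in the metastatic tumour of C1M3, at 0.23. Receptor genes had their highest deviations in the primary tumour of C1M3, at 0.23, and the metastatic tumour of C2M3, at 0.26. In C1M3 the receptor genes were lower in the metastatic tumour (median -0.28) where the members were higher (median 0.17), and in C1M5 and C2M3 both families were higher. Neither the members nor the receptor genes thus had a flat level over the arrays, and the part of that level in the members' differences was not tested.

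**Figure D5:**
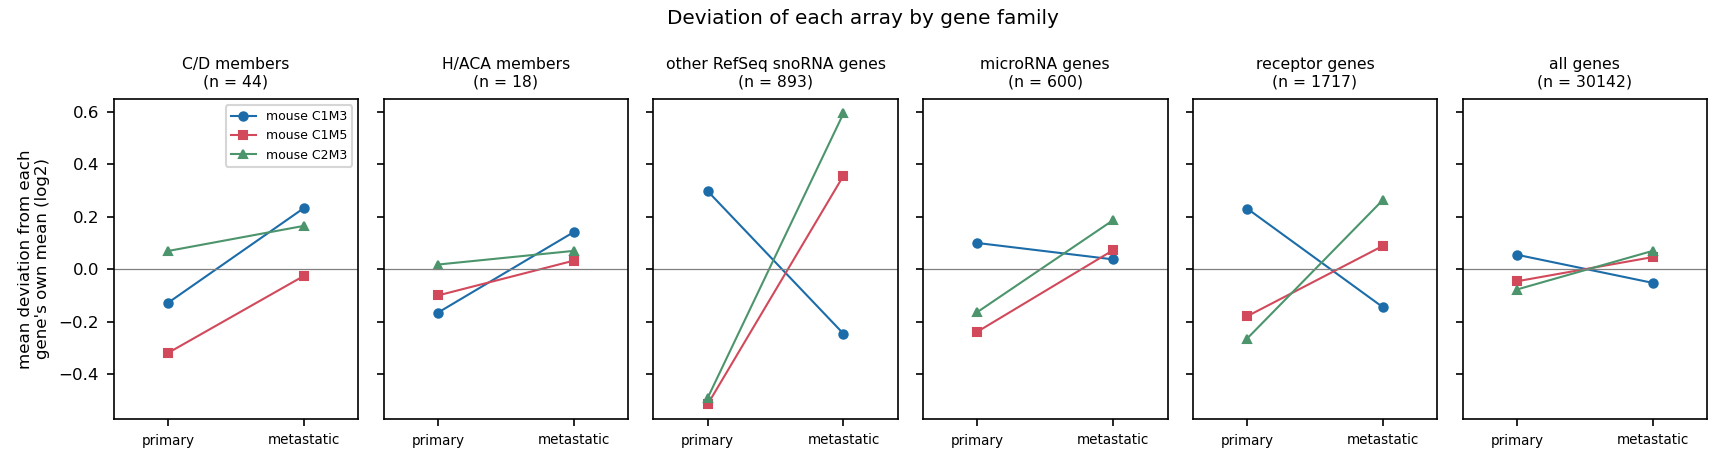
Mean deviation of each array from each gene's own mean over the 6 arrays (log2 intensity) for 6 gene families, primary left and metastatic right, with 1 line per mouse. The C/D and H/ACA members are higher in the metastatic tumour of every mouse on this measure, before any centring, whereas the receptor genes and other RefSeq snoRNA genes are lower there in C1M3.

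Markers of other cells also differed among the tumours. The ovarian tumour cell markers, 6 of 6 measured, averaged 10.52, 12.07 and 10.58 in primary and 10.43, 12.08 and 10.10 in metastatic tumours. Neuron markers, 4 of 4 measured, averaged between 4.21 and 4.40 per array. Adipocyte markers, 7 of 8 measured, averaged 5.87, 9.67 and 11.94 in primary and 6.03, 6.01 and 5.49 in metastatic tumours, high in the primary tumours of C1M5 and C2M3. Macrophage markers, 6 of 6 measured, averaged 6.49, 8.86 and 9.40, then 8.33, 8.74 and 9.26, and T cell markers, 4 of 5 measured, 4.39, 4.66 and 5.18, then 4.82, 4.79 and 5.12. Endothelial markers, 4 of 4 measured, averaged 6.71, 7.64 and 9.17, then 7.91, 6.31 and 7.62, and smooth muscle markers, 4 of 4 measured, 6.04, 7.70 and 8.64, then 6.42, 6.41 and 6.77. In C1M3 the averages of these 4 lists were higher in the metastatic tumour. For smooth muscle this came from Acta2 (1.45) and Cnn1 (0.33), beside -0.23 for Des and 0.00 for Myh11. Of the 62 members, 16 were lowest in the primary tumour of C1M3, beside 6226 of all 30142 genes. A tie for the lowest value went to the first array in the order used, which began with this tumour. The count over all genes may therefore include ties. The primary tumour of C1M5 was lowest for 18 members, beside 6444 of all genes. Snord61, Snord71, Snora31 and Snora69 were among the 16. The averages of the macrophage, T cell and smooth muscle markers were also lowest in the primary tumour of C1M3, although Des and Myh11 were lowest in metastatic tumours. Cycling markers, 4 of 5 measured, averaged 10.65, 9.05 and 8.68, then 9.31, 9.06 and 7.57. In whole tumours fewer cells of a type and less RNA per cell cannot be told apart, and the part of these cells in the members' values was not tested.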

How the data were processed

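RNA of 6 tumours was hybridised to whole-transcriptome arrays after extraction from frozen tissue with a column kit, per the labels' protocols. Columns of that kind hold back short RNAs only in part, which bears on RNAs as short as these. The deposited values are log2 intensities per probe set, and RMA and Transcriptome Analysis Console are named in the submitters' processing notes. Their versions and the genome build are not given in the sources used here. No column of sample values was left unused.

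Of 72688 probe sets, 6732 were controls, 30604 had 1 gene symbol, 2146 several and 33206 none in the platform annotation. Symbols of 827 were updated through Entrez identifiers, none of them a member. The brightest probe set was kept for 355 genes with several, including 4 members, giving 30142 genes with no filter on dim ones. Of these, 610 share all 6 values with another gene, and no member does. Hosts are genes whose interval in a RefSeq table of GRCm38.p6 contains the member.

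All genes were fitted together in limma 3.58.1 (R 4.3.3), metastatic against primary, two-sided, with Benjamini-Hochberg adjustment. Each SE comes from this fit, without a block, unless a block is named, so it contains the variation among mice. The 2 tumours of a mouse are paired by the donor label. As a check, the deviations of both tumours from their group means were correlated over all genes, which gave r = -0.05 for C1M3, 0.35 for C1M5 and 0.07 for C2M3. Tumours of different mice gave between -0.30 and 0.13, and for C1M3 and C2M3 the primary tumour correlated more with the metastatic tumour of the other of these mice, at 0.13 and 0.09. The number of arrays limits the precision. On simulated data over 30142 genes for this comparison, the fit called 46% of 100 genes changed 2-fold and 75% of 100 changed 4-fold. The simulated noise was independent between genes and arrays, with no mouse effect and no shift of whole arrays, so these shares may not hold for the deposited arrays. The fit also called 11 unchanged genes there. Members had a median range over the arrays of 0.97, beside 0.50 over all genes, and whether these shares apply to the members was not tested. Tables and figures were made with Python 3.11.15, pandas 2.3.3, numpy 2.4.6 and matplotlib 3.10.9.

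Members were named where they had 1 sign in all 3 mice and a group mean above the median of all genes (up to 6 per class and direction by size), where they had the 3 widest ranges of their class, or where they were on a list of known snoRNAs. Snord11, Snord23, Snord45b, Snord4a, Snord55, Snord64, Snord70, Snord83b and Snora16a were named after their values were seen, as were Snord89 and single genes of other lists. Members and lists were chosen with earlier results of these data known. No test was run over a list. The 17 alternatives varied the block, array weights, prior, centring, probe set rule, filter and arrays included.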

Additional observations from a re-analysis of the deposited data

How the results depend on the processing

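No alternative brought a member past the adjusted threshold, with 0 in each of 17 settings. The replicate block (the mouse as a block) gave 8 members at an unadjusted p under 0.05 in limma, against 7 without the pairing, and changed no call. Array weights gave 16 (12 higher and 4 lower), beside 7.23% and 3.32% of all genes. Leaving out arrays or mice gave 5 to 12 members, the highest when primary C1M3 was dropped (9 higher and 3 lower, beside 6.4% and 2.71% of all genes), with 11 when primary C2M3 was (9 and 2, beside 2.26% and 2.85%). Counts without overlap then ran from 12 to 26, with 12 to 23 over the primary arrays left out singly and 26 without all of C1M3 (18 higher and 8 lower, beside 27.9% and 11.4% of all genes) or of C2M3 (20 and 6, beside 8.93% and 11.2%), and counts with 1 sign over the 2 mice left were 39 without C1M3, 27 without C1M5 and 33 without C2M3, since fewer arrays must separate. The C/D median of 0.13 became 0.0565 with receptor genes as the centre, 0.0224 with all genes as the centre and 0.32 above the median level, and ran from 0.0765 to 0.239 with arrays left out. The H/ACA median of 0.01 became -0.0588, -0.0928 and 0.23, and ran from -0.0193 to 0.121. The median over all genes moved from 0.02 to -0.06 and -0.09 with these centrings. The difference between the classes kept its sign throughout, from -0.21 to -0.02 with arrays left out. Single members whose sign turned were Snora73a (0.0225), Snord118 (0.19) and Snord13 (0.10) with array weights. With arrays left out the differences ran from -0.55 to 0.48 for Snora31, -0.18 to 0.11 for Snora73a, -0.74 to 0.32 for Snord118 (0.12 without C1M3), -1.22 to 0.44 for Snord13, -1.18 to 0.30 for Snord14e and -1.47 to 0.53 for Snord71, which was 0.46 without C1M5. Over the primary arrays alone the ranges were -0.43 to 0.37 for Snora31, -0.92 to 0.30 for Snord14e and -1.09 to 0.43 for Snord71. For the changes with centring or weights the cause was not tested. Signal over background limits the dimmer members, as only 12 of 62 exceeded the brightest background probe set on every array.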

Other observations

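Other genes that RefSeq types as snoRNA, 893 with symbols outside the Snora and Snord names, had a median difference of 0.35 between metastatic and primary tumours, wider than the 0.08 of the 62 members. The mean was higher in metastatic tumours for 742 of them, beside 55.1% of all genes. In all 3 mice 190 were higher, beside 11.1% of all genes, and 22 lower, beside 8.64%. Their within-mouse medians were -0.22 in C1M3, 0.52 in C1M5 and 0.60 in C2M3, and those of the receptor genes were -0.28, 0.15 and 0.34, with the same signs. The members had 0.17, 0.05 and 0.08.

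Other small noncoding RNA genes, 28 in number, had a median difference of 0.26 and higher means for 21, beside 55.1% of all genes. Some share all 6 values, and over the 24 distinct sets of values the median was 0.21, with 18 higher. Scarna9, a small Cajal body RNA, measured 5.05, 5.58 and 5.17 in the primary tumours of C1M3, C1M5 and C2M3 and 6.22, 5.59 and 5.81 in their metastatic tumours, without overlap and with a difference of 0.61 (SE 0.22). Rny3, an RNA of the Ro particle, measured 18.41, 17.30 and 17.63, then 18.29, 18.49 and 18.88, with a lower metastatic value in C1M3 alone. Scarna10 measured 8.36 in the primary tumour of C1M3 and between 5.61 and 6.33 on the other 5 arrays. The Rnu3a gene of U3, the C/D RNA that starts the cutting of the ribosomal RNA precursor, measured 6.49, 5.40 and 6.04, then 6.04, 6.69 and 6.39, with opposite signs among mice. These genes were chosen after their values were seen.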
